A study of Mus musculus with 9 samples.

Results

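Nascent transcription of 10 genes of fatty acid synthesis and desaturation was measured in mouse CD8+ T cells under 3 kinds of stimulation. The genes were taken by symbol, whatever their signal, from 37022 genes of chromosomes 1 to 19: the regulator Srebf1, the committed and synthase enzymes Acaca and Fasn, the elongases Elovl5 and Elovl6, the delta-9 desaturases Scd1 and Scd2, and the fatty acid desaturase cluster Fads1, Fads2 and Fads3. Where a gene had several transcripts, the 1 with the highest gene-body signal, averaged across the 9 libraries, was used. The 9 libraries fell into 3 groups of 3: CD8+ T cells after acute stimulation (Acute), after chronic stimulation (Chronic), and after chronic stimulation together with inhibition of the kinase MEK (ChronicMEKi). Newly made RNA was labelled in live cells with 0.2 mM 5-ethynyl uridine for 30 min, captured and sequenced as 100-bp paired reads, so that introns and exons of genes being transcribed both give signal. The mouse strain and age, the stimulus, its duration and the inhibitor are not given in the sources used here. The labels number the replicates without saying whether they were separate animals or cultures, so the p-values below measure only the spread between these libraries.

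Cells build fatty acids from cytosolic acetyl-CoA. Acetyl-CoA carboxylase (Acaca) makes malonyl-CoA, fatty acid synthase (Fasn) joins these units into palmitate, elongases lengthen the chain, the Scd enzymes place the first double bond of monounsaturated fatty acids, and the Fads enzymes add double bonds in polyunsaturated fatty acid synthesis. SREBP-1, the product of Srebf1, is a membrane-bound transcription factor released by cleavage when sterols are low, and it binds sterol elements at many of these genes, often beside the factors NF-Y and Sp1. T cells take up this programme after activation, when growing cells need new membranes.

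Sequences upstream of RefSeq gene starts (assembly GRCm38.p6) were found for 7 of the 10 genes, in 9 windows, because Srebf1 has 3. Fads1, Scd1 and Scd2 have no entry. The 4 stretches below are the 250 bases before the start, read 5′ to 3′ on the gene's strand. Fads2 had the largest change of the 10 genes, and Elovl5 was not called in any comparison. The windows of Fasn and the internal Srebf1 start hold TCACCC, a part of the sterol element TCACCCCAC, but not that element. Fads2 lies at chr19:10101504-10101753 (minus strand), Fasn at chr11:120824548-120824797 (minus), Srebf1 at chr11:60210472-60210721 (minus) and Elovl5 at chr9:77917115-77917364 (plus). Capitals mark TCACCC, the NF-Y box CCAAT and the GC box GGGCGG, each on either strand, so that ATTGG and CCGCCC are the reverse complements of the last pair.
Fads2: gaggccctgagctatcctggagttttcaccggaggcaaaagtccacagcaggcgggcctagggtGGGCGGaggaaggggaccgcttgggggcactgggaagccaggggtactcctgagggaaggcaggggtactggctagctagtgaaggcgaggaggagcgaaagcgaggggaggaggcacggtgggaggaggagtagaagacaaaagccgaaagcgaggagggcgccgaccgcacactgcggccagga
Fasn: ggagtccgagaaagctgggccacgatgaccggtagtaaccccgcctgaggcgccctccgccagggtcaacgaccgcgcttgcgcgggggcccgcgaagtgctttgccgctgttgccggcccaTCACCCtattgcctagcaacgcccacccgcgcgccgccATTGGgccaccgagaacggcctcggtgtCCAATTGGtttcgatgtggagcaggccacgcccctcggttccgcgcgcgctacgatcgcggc
Srebf1: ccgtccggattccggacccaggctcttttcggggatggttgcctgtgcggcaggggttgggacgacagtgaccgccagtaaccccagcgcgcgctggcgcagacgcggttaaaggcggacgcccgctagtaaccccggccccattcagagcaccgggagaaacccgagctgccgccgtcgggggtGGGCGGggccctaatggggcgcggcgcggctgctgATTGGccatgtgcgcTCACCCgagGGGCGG
Elovl5: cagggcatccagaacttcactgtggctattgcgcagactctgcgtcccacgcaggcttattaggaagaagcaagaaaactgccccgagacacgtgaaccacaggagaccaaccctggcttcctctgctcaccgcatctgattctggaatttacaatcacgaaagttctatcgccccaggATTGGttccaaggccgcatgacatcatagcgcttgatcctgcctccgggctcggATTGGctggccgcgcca

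Fasn held TCACCC from base -128 before the start, and CCAAT or its complement at 3 places, of which the copies at -62 and -59 overlap in one palindrome that also matches the E-box CANNTG. Srebf1 held TCACCC at -15, an NF-Y box at -30 and GC boxes at -65 and -6. Fads2 held a single GC box, at -186 from the RefSeq start and inside the transcript entry used below. Elovl5 held NF-Y boxes at -71 and -17 and the E-box CACGTG at -161. Both strands of the full windows, 250 bases before to 50 after the start, were searched. Of all 32851 windows of 300 bases, 16.2% held TCACCC, against 2 of the 9 windows here. This 6-letter motif was added after the sequences were seen. The sterol element TCACCCCAC was in 0.551% of all windows and its core TCACNCCAC in 1.24%, and neither was in any of the 9. CCAAT was in 37.4% of all windows and 5 of the 9, GGGCGG in 35.7% and 4, CANNTG in 72.3% and 7, and CACGTG in 7.15% and 1. TATAAA was in 13.6% of all windows and the ETS core CCGGAAGT in 3.89%, and the 9 windows held neither. These matches describe the letters only.

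The deposited values are scaled coverage summed over each transcript, in a gene-body table and a pause-region table, and each library's gene-body total over the transcripts used was 48601757 to 52216192. Depth in reads is unknown, since the smallest step of the values is not a read. Rows that resemble ribosomal RNA held 19.1 to 22.3% of the gene-body signal in Acute libraries, 34.2 to 40.6% in Chronic and 29.0 to 36.1% in ChronicMEKi, and libraries were therefore scaled by a trimmed mean of log ratios. The 7 CD8 T cell markers were all detected, with summed signals of 36028 to 41727, 22596 to 27565 and 30867 to 33446 in the 3 groups, and Cd8a itself had means of 4060.5 in Acute, 968 in Chronic and 2880.5 in ChronicMEKi. Adipocyte and hepatocyte markers, of cell types rich in the enzymes studied here, summed to 14.4 to 312 in Acute, 7.89 to 28.1 in Chronic and 13.6 to 42.7 in ChronicMEKi. The 312 came from Alb in Acute replicate 1. B cell markers summed to 534 to 565, 189 to 219 and 160 to 435 (Ms4a1 near 0), and myeloid markers to 161 to 227, 113 to 171 and 90.5 to 218 (Lyz2 and Cd14 near 0). CD4 T cell markers summed to 1040.2 to 1367, 1054 to 1383 and 1729 to 2016, and NK markers to 1263 to 1434, 971 to 1835 and 1569 to 1693, nearly all of the NK sum being Eomes, with Ncr1 near 0. The 2 CD4 T cell markers went opposite ways. Cd4 had means of 441.5, 234 and 116 in Acute, Chronic and ChronicMEKi, and Zbtb7b had 789, 1002 and 1769. The part of these marker levels in the results was not tested.

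Under chronic stimulation the desaturase genes were transcribed far more than under acute stimulation. The ratio of mean signals was 22.1 for Fads2, 11.2 for Scd1, 10.9 for Fads3, 3.16 for Scd2 and 2.75 for Fads1, against 2.01 for Fasn and 1.34 to 1.47 for Elovl6, Acaca and Srebf1. In limma, 9 of the 10 genes were higher in Chronic and 0 lower at an adjusted p under 0.05, where 18.0% of all 15942 tested genes were higher and 15.9% lower. The exception was Elovl5, with a log2 difference of 0.19. The median log2 fold change of the 10 genes was 1.23, against -0.02 for all genes, whose 5th to 95th percentiles ran from -1.36 to 1.31. Fads2, Scd1, Scd2 and Fads1 lay above that range. Fads3, below the filter on low signal in all Acute libraries, was tested only through its Chronic and ChronicMEKi signal and had to differ, so its call supports nothing here. Of the other 9 genes 8 were higher, with a median of 1.02. Bulk signal per gene cannot tell a change in each cell from a change in the share of cells that transcribe the gene.

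**Figure D1:**
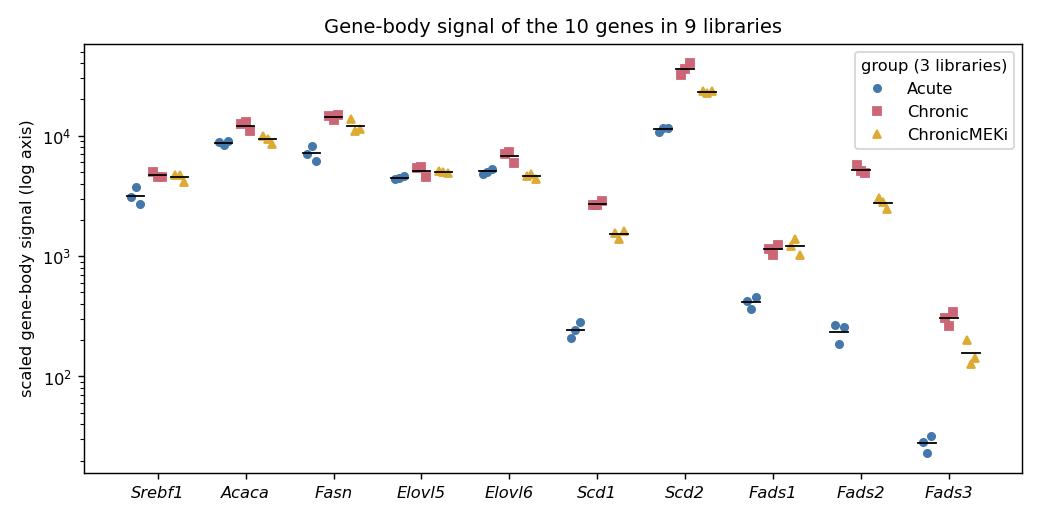
Scaled gene-body signal (log axis) of each of the 10 genes in the 9 libraries, with 3 points per group and a bar at the group mean. Fads2, Fads3, Scd1 and Scd2 separate into 3 levels with Chronic highest, while the Elovl5 groups lie close together.

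With MEK inhibition during chronic stimulation, 5 of the 10 genes were lower than in Chronic: Fads2, Scd1, Scd2, Elovl6 and Acaca. None was higher. In all tested genes 7.65% were lower and 9.93% higher by the same limma threshold. Mean signal was 53.2% of the Chronic mean for Fads2, 55.7% for Scd1, 64.6% for Scd2, 68.5% for Elovl6 and 76.6% for Acaca. Of the genes not called, Fads3 was at 51.7%, Fasn at 84%, Fads1 at 106%, Elovl5 at 97.4% and Srebf1 at 97.0%. Fads3 and Fasn had unadjusted limma p of 0.0122 and 0.0283 (adjusted p = 0.0641 and 0.117). The median log2 fold change was -0.46 over the 10 genes and 0.04 over all genes. The ChronicMEKi libraries of Elovl6 and Acaca overlapped the Acute range, and those of Fads2 and Scd1 lay far above it.

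ChronicMEKi libraries set against the same Acute libraries gave 7 genes higher and 0 lower, where 14.4% of all genes were higher and 11.5% lower. These were Fads1, Fads2, Fads3, Scd1, Scd2, Fasn and Srebf1, with mean ratios from 1.43 for Srebf1 to 11.8 for Fads2. The median log2 fold change was 0.90, against 0.00 for all genes, and without Fads3 it was 0.76 with 6 of 9 genes higher. The 3 comparisons share libraries, so their values are given side by side and are not independent of each other.

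**Figure D2:**
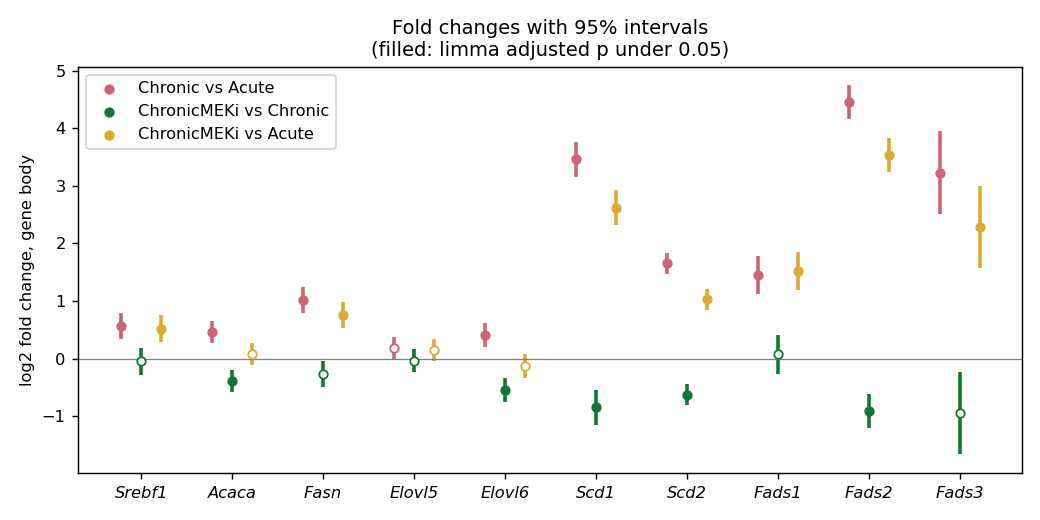
Log2 fold change in gene-body signal (points) with its 95% interval (lines) for each gene in the 3 comparisons; filled points passed a limma adjusted p of 0.05. Chronic against Acute ranges from 0.19 for Elovl5 to 4.45 for Fads2, and ChronicMEKi against Chronic from -0.95 for Fads3, which is not filled, to 0.08 for Fads1.

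The direction of the smaller changes depended on how libraries were scaled. By library totals, 1096 genes were higher and 6846 lower in Chronic than in Acute, in place of 2875 and 2528, and the median gene shifted by -0.49. For ChronicMEKi against Chronic the split was 1769 higher and 741 lower in place of 1583 and 1219, with a shift of 0.11, and for ChronicMEKi against Acute 955 and 4965 in place of 2291 and 1827, with a shift of -0.38. Elovl6, Acaca and Srebf1 were then not called between Chronic and Acute, which left 6 of the 10 genes, Fads3 among them. The values of Fads1, Fads2, Scd1, Scd2 and Fasn in that comparison passed under each scaling tried. Those of Fads3 passed too, but its difference from Acute was partly fixed by the filter, so this supports nothing.

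Srebf1 encodes the regulator SREBP-1. Its transcript Srebf1-201 (ENSMUSG00000020538.15, chr11:60199089-60220604, minus strand, GRCm38) had gene-body signals of 3070.3, 3737 and 2728 in Acute, 4963, 4577 and 4506 in Chronic, and 4737, 4758 and 4124 in ChronicMEKi. Acute libraries were all below the others, and the Chronic and ChronicMEKi ranges overlapped. The log2 fold change was 0.57 ± 0.11 (SE, n = 3 per group) between Chronic and Acute, with a limma adjusted p of 0.000567. It was 0.52 between ChronicMEKi and Acute (adjusted p = 0.00168) and -0.05 between ChronicMEKi and Chronic (95% interval -0.28 to 0.19, adjusted p = 0.847). By library totals the first became 0.08 (adjusted p = 0.661) and the second 0.14 (adjusted p = 0.462). Srebf1 overlaps Rai1 on the opposite strand and 2 miRNA genes on its own, and whether the authors' counting used strand is not given in the sources used here.

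Acaca encodes the cytosolic acetyl-CoA carboxylase, the committed step of synthesis. Acaca-202 (ENSMUSG00000020532.18, chr11:84173122-84401651, plus strand) had signals of 8911, 8363 and 9018 in Acute, 12586, 13008 and 10843 in Chronic, and 9971, 9429 and 8518 in ChronicMEKi. The Chronic libraries lay above all others, and the Acute and ChronicMEKi ranges overlapped. Acaca rose by 0.47 ± 0.09 on the log2 scale between Acute and Chronic (limma adjusted p = 0.000626) and fell by 0.38 with the inhibitor (adjusted p = 0.00638). ChronicMEKi and Acute differed by 0.08 (95% interval -0.11 to 0.28). Its first difference was -0.02 by library totals, and the second was not called by totals (-0.28, adjusted p = 0.217), on the deposited scale (-0.25, 0.243), without the intensity trend and robust moderation (-0.38, 0.0644) or without ChronicMEKi replicate 3 (-0.32, 0.0534). Acaca overlaps Gm11437 on the opposite strand and Gm37391 on its own.

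Fasn encodes the multi-enzyme synthase that makes palmitate. Fasn-201 (ENSMUSG00000025153.9, chr11:120805846-120824547, minus strand) had signals of 6992, 8258 and 6148 in Acute, 14589, 13579.5 and 14922 in Chronic, and 13682, 11028 and 11472 in ChronicMEKi. All Chronic and ChronicMEKi libraries exceeded all Acute libraries, and ChronicMEKi replicate 1 reached into the Chronic range. Fasn rose by 1.02 ± 0.11 between Acute and Chronic (limma adjusted p = 6.6e-07) and was 0.76 above Acute in ChronicMEKi (adjusted p = 3.17e-05). The difference between ChronicMEKi and Chronic, -0.26 (95% interval -0.48 to -0.03), was not called, with an adjusted p of 0.117. It was called without ChronicMEKi replicate 1 (-0.41, adjusted p = 0.0296), Acute replicate 2 (-0.32, 0.019) or Acute replicate 3 (-0.31, 0.0388). No other gene of the annotation overlaps Fasn.

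Elovl5 extends polyunsaturated chains and Elovl6 extends palmitate to stearate. Elovl5-201 (ENSMUSG00000032349.13, chr9:77917364-77984519, plus strand) had signals of 4334, 4465 and 4658 in Acute, 5421, 5449.7 and 4527 in Chronic, and 5068, 4990.1 and 4941 in ChronicMEKi. Its Acute and Chronic ranges overlapped through Chronic replicate 3. The log2 differences were 0.19 (95% interval -0.0049 to 0.38, limma adjusted p = 0.126) for Chronic against Acute and -0.03 (-0.23 to 0.16) for ChronicMEKi against Chronic. Without Chronic replicate 3 the first was 0.28 and was called (adjusted p = 0.0111). Under the alternatives other than leaving a library out, the first ran from -0.30 to 0.22 and was not called.

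Elovl6-201 (ENSMUSG00000041220.10, chr3:129532386-129638495, plus strand) had signals of 4775, 5039.7 and 5320.1 in Acute, 6986, 7335 and 5916 in Chronic, and 4640.4, 4815 and 4404 in ChronicMEKi. Chronic libraries were highest, and ChronicMEKi libraries lay at or below the lowest Acute library but for replicate 2. Elovl6 rose by 0.41 ± 0.10 between Acute and Chronic (limma adjusted p = 0.00238) and fell by 0.54 ± 0.10 with the inhibitor (adjusted p = 0.000466). ChronicMEKi against Acute gave -0.13 (95% interval -0.33 to 0.08, adjusted p = 0.375). By library totals the Chronic to Acute difference was -0.08 (adjusted p = 0.671), the difference from Acute in ChronicMEKi was called at -0.51, and the fall with the inhibitor was called under each setting tried. Elovl6 overlaps the antisense gene Gm35986 and, on its own strand, Gm43072.

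Scd1 and Scd2 encode close paralogs that make oleate and palmitoleate from saturated chains, so reads could be split between them by the counting, and their values are uncertain to that extent. Scd1-201 (ENSMUSG00000037071.3, chr19:44394455-44407709, minus strand) had signals of 207, 245 and 284 in Acute, 2638, 2673 and 2890.0 in Chronic, and 1568, 1388 and 1609 in ChronicMEKi. The 3 groups did not overlap. Scd1 rose by 3.46 ± 0.14 between Acute and Chronic (limma adjusted p = 3.9e-12), fell by 0.84 ± 0.14 with the inhibitor (adjusted p = 0.000306) and remained 2.62 above Acute in ChronicMEKi (adjusted p = 3.36e-10).

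Scd2-201 (ENSMUSG00000025203.6, chr19:44293674-44306864, plus strand) had signals of 10754, 11645 and 11577 in Acute, 32136, 35548 and 39833 in Chronic, and 23691, 22433 and 23309 in ChronicMEKi. Again no groups overlapped. Scd2 rose by 1.66 ± 0.09 between Acute and Chronic (limma adjusted p = 7.92e-11), fell by 0.63 ± 0.09 with the inhibitor (adjusted p = 4.08e-05) and was 1.03 above Acute in ChronicMEKi (adjusted p = 7.2e-08). Scd2 overlaps the miRNA gene Mir5114 on its own strand. Of the related desaturase genes, Scd3 (0.22) and Scd4 (0.58) were not called between Chronic and Acute.

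Fads2, the delta-6 desaturase and first step in making long polyunsaturated fatty acids, showed the largest difference. Fads2-201 (ENSMUSG00000024665.8, chr19:10062765-10101746, minus strand) begins near the 5′ end of the stretch printed above. Most of that stretch, with its GC box, therefore lies inside this entry. Fads2-201 had signals of 266, 186 and 256 in Acute, 5704, 5048 and 4888 in Chronic, and 3030.3, 2833 and 2464 in ChronicMEKi. The lowest Chronic library was above every ChronicMEKi library, and the lowest of these was far above every Acute library. Fads2 rose by 4.45 ± 0.14 between Acute and Chronic (limma adjusted p = 1.6e-13), fell by 0.91 ± 0.14 with the inhibitor (adjusted p = 0.000126) and was 3.54 above Acute in ChronicMEKi (adjusted p = 8.69e-12). No gene overlaps it.

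Fads1, the delta-5 desaturase that acts after Fads2 in the same pathway, was not called under the inhibitor. Fads1-201 (ENSMUSG00000010663.5, chr19:10182888-10196874, plus strand) had signals of 421, 363 and 459 in Acute, 1147, 1022 and 1247 in Chronic, and 1206, 1379.9 and 1029 in ChronicMEKi. Chronic and ChronicMEKi overlapped, above all Acute libraries. Fads1 rose by 1.45 ± 0.16 between Acute and Chronic (limma adjusted p = 1.01e-06), and ChronicMEKi differed from Chronic by 0.08 (95% interval -0.26 to 0.41, adjusted p = 0.82) and from Acute by 1.52 (adjusted p = 9.16e-07). Fads1 overlaps Mir6993 on its own strand.

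Fads3, a desaturase homologue that acts on sphingoid bases, had little signal in Acute. Fads3-201 (ENSMUSG00000024664.5, chr19:10041569-10060110, plus strand) had signals of 28.8, 22.9 and 31.9 in Acute, 304, 262 and 344 in Chronic, and 200.3, 128 and 143 in ChronicMEKi. It passed the filter on low signal, at least 50 in 3 libraries, only through the Chronic and ChronicMEKi libraries, so its difference from Acute was partly fixed by the filter. As a description, the log2 fold change was 3.23 ± 0.34 (SE) between Chronic and Acute and 2.28 between ChronicMEKi and Acute. ChronicMEKi against Chronic gave -0.95 (95% interval -1.66 to -0.23), which was not called (adjusted p = 0.0641) although the groups did not overlap. It was called with the 2 groups fitted alone (0.0263), with a pseudocount of 20 (0.0432), without the intensity trend and robust moderation (0.0172), and without Acute replicate 2 (0.0335) or 3 (0.0458).

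As a description, with no test since the pairs were chosen after their values were seen, the ratio of Fads2 to Fads1 signal per kilobase of transcript span, the unspliced length, was 0.226, 0.184 and 0.200 in the Acute libraries, 1.78, 1.77 and 1.41 in Chronic, and 0.902, 0.737 and 0.859 in ChronicMEKi. Per kb, Fads2 therefore lay below Fads1 in every Acute and ChronicMEKi library and above it in every Chronic library. Scd2 gave 41.0 to 52.3 times the signal of Scd1 per kb in Acute libraries, 12.2 to 13.9 times in Chronic and 14.6 to 16.2 times in ChronicMEKi.

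In Acute the order of mean scaled signal per kb was Scd2 (859), Fasn (381), Srebf1 (148), Elovl5 (66.8), Elovl6 (47.5), Acaca (38.4), Fads1 (29.6), Scd1 (18.5), Fads2 (6.05) and Fads3 (1.51), and no neighbours in that order overlapped. In Chronic, Scd2 (2717) and Fasn (768) again led, but Scd1 (206) had reached the level of Srebf1 (218), with overlapping libraries, and Fads2 (134) stood above Fads1 (81.4), Elovl5 (76.4), Elovl6 (63.6) and Acaca (53.2), each of which overlapped the next. Fads3 (16.4) stayed last. In ChronicMEKi, Fads1 (86.1), Elovl5 (74.5) and Fads2 (71.2) overlapped in that order below Scd1 (115), and Elovl6 (43.5) overlapped Acaca (40.7).

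**Figure D3:**
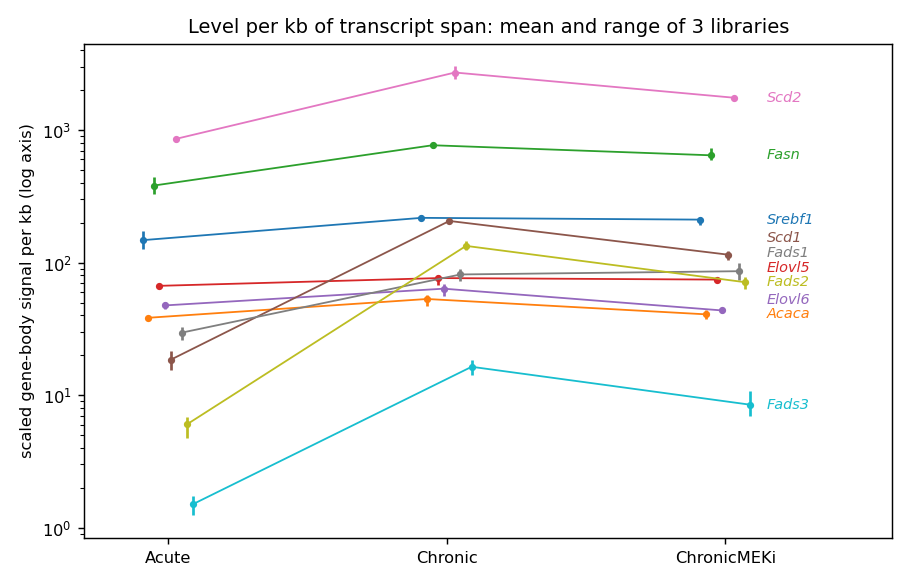
Scaled gene-body signal per kb of transcript span (log axis) for each gene in the 3 groups, with points at the mean of 3 libraries and lines over their range. Scd1 climbs from 18.5 to 206 and Fads2 from 6.05 to 134 between Acute and Chronic, crossing the Elovl5, Elovl6 and Acaca levels.

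The 10 genes have 57 transcript entries in the table, of which 55 passed the filter for gene-body signal. Between Chronic and Acute the log2 differences of the entries that passed were 4.02 to 4.70 for Fads2, 3.46 to 4.02 for Scd1, 1.61 to 1.66 for Scd2, 2.75 to 3.25 for Fads3, 1.07 to 1.56 for Fads1, 0.87 to 1.46 for Fasn, 0.39 to 0.98 for Srebf1, 0.37 to 0.72 for Acaca, 0.28 to 0.41 for Elovl6 and 0.17 to 0.28 for Elovl5. All were above 0. In Acaca the 5 entries that end in the 5′ part of the gene, Acaca-203 to Acaca-207, gave 0.65 to 0.72. The entry used, Acaca-202, gave 0.47, and Acaca-208, which lies downstream of those 5, gave 0.37. In Fads1 the entries differed under the inhibitor: ChronicMEKi minus Chronic was -0.13 for Fads1-205, -0.11 for Fads1-203 and 0.12 for Fads1-206, which lie in the 5′ part, and 0.71 for Fads1-204, 0.61 for Fads1-208 and 0.36 for Fads1-207, which lie in the 3′ part and have mean Chronic signals of 57.6, 75.7 and 165 (no test was run on single entries). Overlapping entries share signal and are not replicates.

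**Figure D4:**
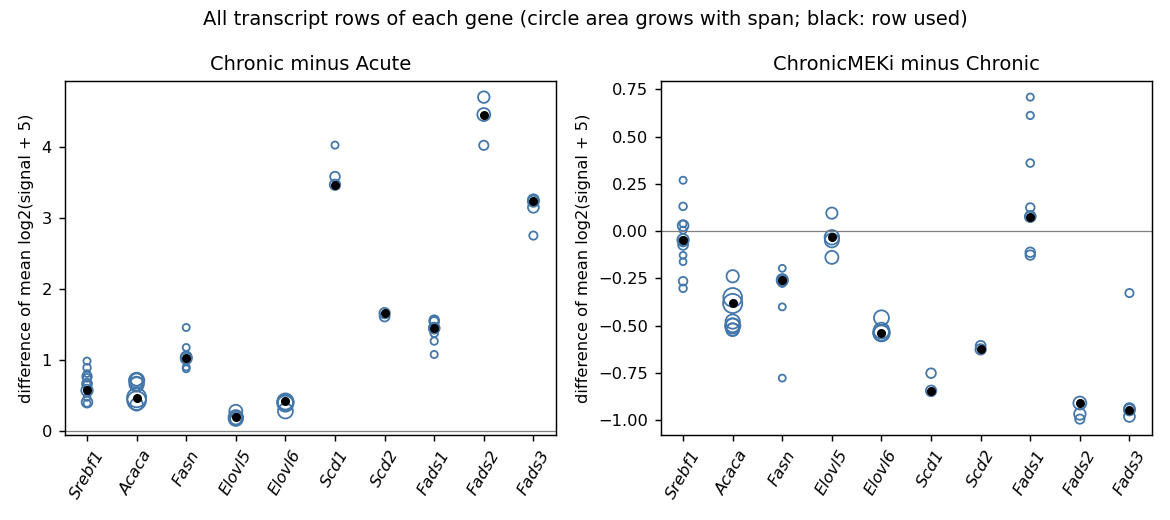
Difference of mean log2(scaled signal + 5) for each transcript entry of each gene, Chronic minus Acute on the left and ChronicMEKi minus Chronic on the right; circle area grows with transcript span and the black point is the entry used. Entries of a gene lie close together for Scd2, and spread from -0.13 to 0.71 for Fads1 on the right.

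Signal near the start of genes, the pause region, was strong enough to test for 5 of the 10 in the transcript entry used: Srebf1, Elovl5, Elovl6, Scd1 and Fads2. Other entries, which were not tested, passed the filter for Acaca (4 entries), Fasn (5), Fads1 (3) and Scd2 (1), but none for Fads3. Of the 5 tested genes, Scd1 and Fads2 passed the filter only through the Chronic and ChronicMEKi libraries and had to differ from Acute, so their values are given as a description. Of the other 3, limma called 0 between Chronic and Acute, with 0 at an unadjusted p under 0.05, where 5.37% of 7678 tested genes were higher and 5.35% lower. Scd1 pause-region signals were 26.5, 6.53 and 12.8 in Acute, 330.5, 367 and 326 in Chronic, and 115, 121 and 200.1 in ChronicMEKi. Those of Fads2 were 11.5, 30.9 and 39.5, then 301, 334 and 296, then 332, 224 and 215. The log2 differences from Acute were 4.21 for Scd1 and 3.40 for Fads2 in Chronic, and 2.97 and 3.11 in ChronicMEKi. Against Acute in ChronicMEKi, limma called 0 of the other 3, with 0 at an unadjusted p under 0.05, where 3.44% of genes were higher and 2.51% lower.

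For ChronicMEKi against Chronic, limma called 0 of the 5 pause regions, with 1 at an unadjusted p under 0.05, where 1.56% of genes were higher and 1.43% lower. That 1 was Scd1, at -1.24 (adjusted p = 0.0658), and it was called at adjusted p of 0.0276 to 0.0385 when any 1 of the Acute replicates 1, 2 or 3 was left out. Fads2, whose gene body fell, differed in the pause region by -0.29 (95% interval -0.98 to 0.40). Srebf1, Elovl5 and Elovl6 were not called in any of the 3 comparisons, and the Srebf1 pause-region signal was 183 ± 42.5 in Acute, 236 ± 14.3 in Chronic and 241 ± 22.1 in ChronicMEKi (SD, n = 3).

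The difference between pause-region and gene-body log2 signal was called for 0 of the 5 genes in each comparison by limma. Over all 7413 genes tested it was called for 0% in Chronic against Acute, 0.0135% (1 gene) in ChronicMEKi against Chronic and 0% in ChronicMEKi against Acute. At an unadjusted p under 0.05 there were 1, 0 and 0 of the 5, the 1 being Fads2, at -1.05 between Chronic and Acute (limma adjusted p = 0.422). Pause-region values depend on the annotated start. Scd2-201 had means of 13.2, 20.9 and 21.4 in the 3 groups, while Scd2-202, with a start further downstream, had 886, 2334 and 1346. Fasn-201 had 10.1, 1.85 and 3.24, and Fasn-205, also with a start further downstream, had 136, 186 and 172.

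Of 10 tested genes listed under precursor and cofactor supply, 8 were higher in Chronic than in Acute and 0 lower by limma, with a median log2 change of 0.80. Acss2 (-0.23), which makes acetyl-CoA from acetate, and Me1 (-0.03), which forms NADPH, were not called. The largest were Acat2 (2.35), a thiolase that uses acetyl-CoA and is also listed with sterol synthesis below, Idh1 (2.01) and Slc25a1 (1.32), the NADPH-forming isocitrate dehydrogenase and the mitochondrial citrate exporter, and Acly (1.12), which splits citrate into acetyl-CoA. With the inhibitor 4 of the 10 were lower and 0 higher, among them Acat2 (-0.90) and Acly (-0.42), and against Acute 6 were higher. For all genes these shares were 7.65% lower and 9.93% higher with the inhibitor, and 14.4% higher against Acute.

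Other enzymes of chain elongation and desaturation were mixed. Of 9 tested elongation genes, 5 were higher and 1 lower in Chronic. The elongase Elovl1 (0.94) and the enoyl reductase Tecr (0.90) were among the 5, and the dehydratase gene Hacd4 (-0.75) was lower. Elovl4 (1.63) is counted as higher, but its Acute mean of 23.9 was below the filter on low signal. Its call was therefore partly fixed by the filter. Under the inhibitor 1 of the 9 elongation genes was higher and 2 lower. Of 9 other desaturases and electron donors, 4 were higher and 1 lower. The largest were Cyb5r3 (1.58) and Cyb5r1 (1.49), cytochrome b5 reductases, then Cyb5b (0.71), a cytochrome b5, and Degs2 (0.44). The 1 lower gene was Cyb5a (-0.41), the other cytochrome b5 gene listed. Under the inhibitor 1 of these 9 was higher, Cyb5a (0.50), and 3 lower, Cyb5b (-0.37) among them. Of 6 other carboxylase and synthase genes, which include the mitochondrial pathway, 0 were higher and 1 lower, Hlcs (-0.50), which attaches biotin to carboxylases, and under the inhibitor 0 changed.

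Regulators did not move as 1 group. Of 10 SREBP processing and control genes, 3 were higher in Chronic, among them Insig1 (1.94), which holds SREBP in the endoplasmic reticulum and is itself an SREBP target, and Srebf2 (0.69), and 4 were lower, among them Rnf139 (-0.58). With the inhibitor 1 was higher and 2 lower, and Srebf2 differed from Chronic by -0.05. Of 8 LXR, ChREBP and PPAR factors, 1 was higher in Chronic and 1 lower. Pparg, a lipid-sensing nuclear receptor, rose by 1.63 and fell by 1.59 with the inhibitor, and Ppargc1b, a coactivator, was at -0.79. Of 6 LXR targets in sterol export, 1 was higher and 4 lower in Chronic, among them the exporter Abcg1 (-2.06), and with the inhibitor 2 were higher and 0 lower. Smpdl3a (-2.13) is counted among the 4, but its Chronic mean of 24.8 was below the filter on low signal. Its call was therefore partly fixed by the filter.

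Genes that use fatty acids were also mixed. Of 7 acyl-CoA synthetases, 3 were higher and 2 lower in Chronic, the lower ones being Acsl6 (-3.57) and Acsbg1 (-1.46). Of 14 genes listed under glycerolipid synthesis, 5 were higher, led by the phosphatidate phosphatase Lpin1 (2.26), and 2 lower, led by Agpat3 (-1.27). That list also holds the lipase genes Lipe and Pnpla2, and Lipe (0.52) is among the 5. Of 14 fatty acid oxidation genes, 4 were higher, led by Hadh (0.99) and Acads (0.75), and 1 lower, and with the inhibitor 0 were higher and 1 lower (0 without Chronic replicate 2 or ChronicMEKi replicate 3). The sterol synthesis and uptake list gave 20 of 21 higher in Chronic and 0 lower, with a median of 2.05 and 3.16 for Hmgcs1, and 18 lower with the inhibitor. Tm7sf2 (3.05) is counted among the 20, but its Acute mean of 23.2 was below the filter on low signal. Its call against Acute was therefore partly fixed by the filter. The lists were compiled with earlier results of these data known, and their counts stand beside 18.0% higher and 15.9% lower of all genes in Chronic against Acute, and 9.93% higher and 7.65% lower in ChronicMEKi against Chronic. Some of the listed genes named so far overlap a gene on the opposite strand and are uncertain to that extent. These are Acss2, Me1, Scd3, Elovl1, Tecr, Hacd4, Cyb5a, Cyb5r3, Degs2, Hlcs, Rnf139, Pparg, Ppargc1b, Acsl6, Agpat3, Lipe and Hmgcs1.

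**Figure D5:**
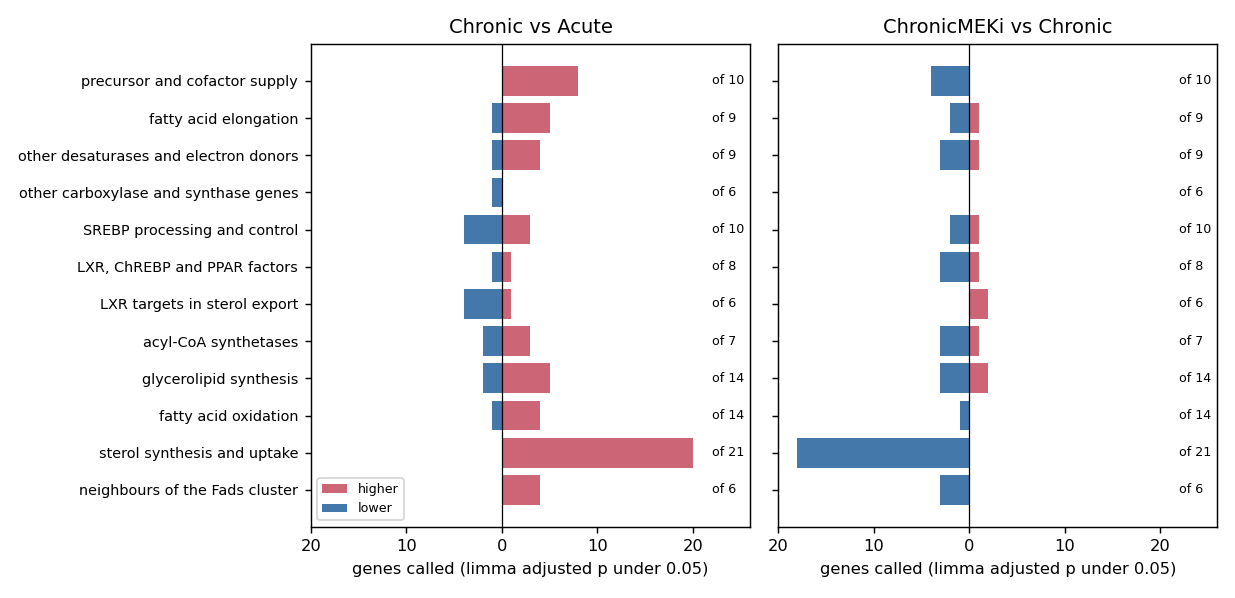
Number of genes of each list called higher (right of 0) or lower (left of 0) by limma at an adjusted p under 0.05, for Chronic against Acute and ChronicMEKi against Chronic, with the number tested at the right edge. Precursor supply has 8 of 10 higher and sterol synthesis 20 of 21, while SREBP control has 3 higher and 4 lower.

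Fads1, Fads2 and Fads3 lie side by side on chromosome 19, and some of their neighbours were also higher in Chronic. Of 6 tested neighbours, 4 were higher and 0 lower between Chronic and Acute: Myrf (2.12), a membrane-bound transcription factor, the ferritin heavy chain gene Fth1 (1.25), the lipase gene Dagla (1.24) and the flap endonuclease gene Fen1 (1.24). Tmem258 (0.08) and Best1 (0.06) were not called. Dagla, Fen1 and Tmem258 each overlap a gene on the opposite strand. With the inhibitor 3 of the 6 were lower and 0 higher, and Fen1, like Fads1, was not called (0.04). In ChronicMEKi against Acute 1 of the 6 was higher, Fen1 (1.27), and 0 lower. For all genes the shares were 18.0% higher and 15.9% lower in Chronic against Acute, and 9.93% and 7.65% with the inhibitor. They were 14.4% and 11.5% in ChronicMEKi against Acute.

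Over the 9 libraries, Fads2, Fads3, Scd1 and Scd2 followed each other closely, with Pearson correlations of log2 signal of 0.967 to 0.991. Fads1 correlated with them at 0.886 to 0.958, and Fasn with the 4 genes at 0.944 to 0.954. Elovl6 was apart, at 0.225 with Fads1 and 0.561 with Scd2, and closest to Acaca, at 0.902. Among 6294 other genes with a range of at least 1 on the log2 scale, patterns close to that of Fads2 included those of Ccne2 (0.995) and Tg (0.994). For Scd1 the nearest were the sterol genes Fdps, Cyp51 and Hmgcs1 (each 0.995), for Scd2 Cyp51, Hspa1b and Insig1 (each 0.994), and for Fads3 Cyp51 (0.994), Cep85 (0.992) and Tg (0.991). Fads1 was nearest to Pmvk (0.990), Pomgnt1 (0.989) and Sgo2a (0.984), Fasn to Pfkfb4 (0.984), Dpy30 (0.984) and Zyx (0.983), and Srebf1 to SPATA24 (0.985), Phldb3 (0.971) and Neat1 (0.970). Acaca was nearest to Nfat5 (0.979), Lrmp (0.975) and Gnptab (0.971), Elovl6 to Snx30 (0.976), Nkain1 (0.969) and Atxn1 (0.956), and Elovl5 to Nudt13 (0.958), Phxr4 (0.954) and Fcer1g (0.930). These correlations describe 9 libraries in 3 groups that share a scaling, and a high value mostly reflects the group means.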

How the data were processed

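Nascent RNA of 9 libraries, 3 per group, was analysed from 2 tables of scaled coverage signal per transcript that the authors deposited, 1 for gene bodies and 1 for pause regions (read from the table names; their coordinates, and any use of strand, are not given in the sources used here). Per the submitters' processing notes the tools named are FastQC 0.12.0, Trim Galore 0.6.10, STAR 2.7.0a, SAMtools 1.19.2, deepTools and R 4.1.2, with the mm10 build and no role for each. In the deposited signal, low values are whole multiples of a step of 0.764 to 1.06 that differs between libraries (100% of them, within 0.01 of a step), but the step is not a read, so no count test was run and depth in reads is unknown.

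Of 118482 table rows, 117346 matched GENCODE M21 transcripts with their version, 383 without it and 753 not at all, and the entry with the largest mean gene-body signal was kept per gene on chromosomes 1 to 19 (37022 genes, of which 49.3% overlap another gene). Scale factors were unweighted trimmed means of log ratios (30% of ratios and 5% of levels trimmed at each end). Genes that reached a signal of 50 in 3 or more libraries were tested with limma 3.58.1 in R 4.3.3 on log2(scaled signal + 5), which understates changes of weak genes, with 1 mean per group over all 9 libraries, intensity trend and robust moderation, two-sided, with Benjamini-Hochberg adjustment over all genes tested and a threshold of 0.05. The script was tested on simulated data. The members and lists were chosen with earlier results of these data known. Named genes were the 10 members, up to 4 called genes per list with the largest change between Chronic and Acute for supply, elongation, desaturase, carboxylase, SREBP, nuclear-factor and neighbour lists, up to 2 for the others, and the 3 most correlated genes per member. A few genes beyond that rule (Scd3, Scd4, Acss2, Me1, Cyb5a, Tmem258, Best1 and the marker genes) were named after their values were seen. Some genes that the rule names are not reported here. Alternatives covered scaling, pseudocount, filter, transcript entry, model and each library left out.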

Additional observations from a re-analysis of the deposited data

How the results depend on the processing

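Of the gene-body values of the 10 genes recomputed under alternatives, 605 kept their direction and side of the threshold (or, if uncalled in both fits, changed sign without a call), 12 gained a call, 9 lost one and 4 reversed. The reversed values are those of Chronic against Acute by library totals, -0.076 for Elovl6 and -0.024 for Acaca, and on the deposited scale, -0.059 and -0.007 (adjusted p of 0.671 to 0.972). Elovl5, uncalled in the main fit, also changed sign in that comparison without a call, to as low as -0.30. Those scalings shift the median gene by -0.49 and -0.47. Leaving out ribosomal RNA-like rows from the totals shifted it by -0.16 and gave 0.26 for Elovl6 (adjusted p = 0.063). As each library was left out, the number of genes called in either direction ran over 9 to 10 (Chronic against Acute), 4 to 7 (ChronicMEKi against Chronic) and 7 (ChronicMEKi against Acute). It ran over 6 to 9, 4 to 6 and 7 to 8 under the other alternatives. For ChronicMEKi against Acute, Srebf1 lost its call by library totals and on the deposited scale (0.14 and 0.18, limma adjusted p = 0.462 and 0.345). Elovl6 gained a call as lower under both (-0.51 and -0.47, adjusted p = 0.00584 and 0.00925). It was also called lower without the ribosomal RNA-like rows (-0.295, adjusted p = 0.039). In the pause region, ChronicMEKi against Chronic, 0 genes became 1 without Acute replicate 1, 2 or 3 (Scd1), a range of 0 to 1. Pause-region calls over all genes between Chronic and Acute split into 412 higher and 411 lower, and by library totals into 123 and 1600. For the pause region less the gene body, Chronic against Acute, no filter gave 1 gene in place of 0: Fads3 (-3.26, adjusted p = 0.0369), whose pause-region means were all under 3. With no filter 4726, 2228 and 3315 gene-body calls were made over all genes, in place of 5403, 2802 and 4118, and 501, 106 and 209 pause-region calls in place of 823, 230 and 457. Of 756 recomputed list counts, 54 moved by over 1.5 times, in 16 of 36 counts. Of those printed above, library totals and the deposited scale gave 6 in place of 2 LXR, ChREBP and PPAR factors and 2 in place of 1 other carboxylase gene (Chronic against Acute), 2 in place of 4 other desaturase genes (ChronicMEKi against Chronic), and 2 in place of 6 supply genes (ChronicMEKi against Acute). The entry ranked next by signal gave 2 in place of 4 supply genes (ChronicMEKi against Chronic), and the deposited scale 0 in place of 1 oxidation gene. For the Fads neighbours in ChronicMEKi against Acute, 1 became 2 with the next entry, the sum of entries or without Acute replicate 2. With the replicate block the member counts were the same, 9, 5 and 7 for gene bodies and 2, 0 and 2 for pause regions. The counts against Acute in this section include Fads3 for gene bodies, and Scd1 and Fads2 for pause regions. Those calls were partly fixed by the filter, so their staying the same supports nothing. Same-numbered replicates did not deviate together across groups (correlations of -0.533 to 0.098 for 9 same-numbered pairs, -0.367 to 0.513 for 18 others), so they were not taken to pair the libraries. The cause of each change was not tested. With 3 libraries per group and an unknown read depth, weak signals such as Fads3 in Acute and the pause regions limit what can be resolved.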
